A study of Drosophila melanogaster with 62 samples.

Results

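The contacts of the *dac* locus in larval leg discs of *Drosophila melanogaster* were compared between wild type (WT) and flies that carry an insertion named gypsy2. The comparison rests on 6 of the 62 samples of the series, 3 WT and 3 gypsy2 libraries, each of them read from the same pair of viewpoints, and it was chosen by these labels alone. The libraries are 4C-seq libraries, in which DNA that was ligated to a fixed fragment (the viewpoint) is sequenced and counted along the genome, here in 137552 bins of 1 kb. All flies were raised at 20 °C, the labels give no age within the larval stage, and they name no driver, clone or pool. They describe the gypsy2 genotype only as an insertion of gypsy, without its position or orientation, and the columns of these libraries also carry the letters enh, whose meaning is not given. Leg discs of pupae with the same pair of genotypes, another 6 samples, served for comparison with another stage. Because 4C-seq counts genomic DNA, the tissue could not be checked against marker genes.

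*dac* (dachshund) encodes a nuclear co-regulator of transcription that is needed in the intermediate segments of the leg. Polycomb response elements (PREs) are DNA elements that recruit the Polycomb group proteins, which keep developmental genes silent, and a pair of them, PRE1 and PRE2, form a chromatin loop at *dac*. gypsy is a retrotransposon that contains an insulator bound by Su(Hw), an element known for blocking the communication of enhancers with promoters when it lies between them.

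On the dm6 assembly the PRE2 viewpoint is the bin at 2L:16487001-16488000, just upstream of the start of *dac*, which is transcribed from the minus strand between 16466512 and 16485998. The other viewpoint, named gypsy2, is the bin at 2L:16465001-16466000, 22 kb away and just past the 3′ end of *dac*. The PRE1 anchor, 2L:16420001-16426000, lies within the body of CG5888, and the PRE2 anchor, 2L:16483001-16489000, contains the PRE2 viewpoint. Hence from PRE2 the direction of PRE1 crosses first *dac* and then the gypsy2 viewpoint. In what follows this direction is called the PRE1 side and the other the opposite side.

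Both anchors are rich in GAGAG, the motif bound by GAGA factor, a protein found at many PREs. The stretch of 100 bases with most matches in each anchor is shown because the anchors are the regions that the comparisons below refer to. The sequences are those of the forward strand of dm6, 5′ to 3′, and capitals mark GAGAG or its reverse complement CTCTC, overlapping matches included.
PRE1 anchor, 2L:16422756-16422855: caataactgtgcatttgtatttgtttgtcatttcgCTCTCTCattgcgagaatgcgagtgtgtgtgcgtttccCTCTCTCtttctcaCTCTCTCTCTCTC
PRE2 anchor, 2L:16486293-16486392: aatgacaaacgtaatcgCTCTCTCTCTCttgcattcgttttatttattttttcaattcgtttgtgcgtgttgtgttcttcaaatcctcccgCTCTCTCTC
The first stretch held 9 matches and the second 7. The whole PRE1 anchor held 22 matches and the PRE2 anchor 21, against a median of 8 in windows of 6 kb along 2L. As many as in the PRE1 anchor were found in 2.58% of the 3918 windows of 2L, and as many as in the PRE2 anchor in 3.14%, while 11.1% of stretches of 100 bases held the motif at all. The first stretch lies within the body of CG5888, and the second in no annotated protein-coding gene.

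The libraries held 2274115 to 3151718 counts when read from PRE2 and 3997998 to 6456560 counts when read at the gypsy2 viewpoint. After leaving out the viewpoint bin and 5 kb on either side, which took 27.4 to 46.6% and 16.6 to 45.4% of the counts, 2L held 1003704 to 1519523 and 2562297 to 3168720 counts. From PRE2 the part left out was larger in gypsy2 (42.4, 46.6 and 31.9%) than in WT (27.4, 28.0 and 29.9%), without overlap. The rest of 2L thus held 48.2, 43.7 and 51.9% of all counts in gypsy2 and 58.9, 57.6 and 58.4% in WT. At the gypsy2 viewpoint the part left out overlapped between the genotypes. Every value below is relative to the 2L total outside the part left out. A higher share of it from PRE2 need not be a higher share of all counts. CPM stands for counts scaled to 1000000 counts on 2L, the bins around the viewpoint left out. Counts of the same fragment may be PCR copies, so counting error is not the limit of precision here, and since the labels do not say that the libraries came from separate batches of discs, the p-values measure only the spread between libraries, which may be technical. With 3 libraries against 3, the exact permutation test of a single value, two-sided throughout, cannot give p below 0.1.

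The library labelled WT 2 was closer to gypsy2 than WT 1 and WT 3 were, although it remained closer to these WT libraries than to gypsy2. Over the 390 bins within 200 kb of PRE2, the correlation (on log2 of the CPM plus 10) of WT 2 with the gypsy2 libraries was 0.914 to 0.943, and that of WT 1 and WT 3 was 0.868 to 0.902. Seen at the other viewpoint, the corresponding ranges were 0.920 to 0.948 and 0.888 to 0.919. With WT 1 and WT 3, WT 2 correlated at 0.976 to 0.979 from PRE2 and at 0.979 to 0.980 from the gypsy2 viewpoint. Between WT 1 and WT 3 the correlation was 0.989 and 0.986. Neighbouring bins and shared viewpoints make these values a description. Results are therefore given with all libraries. Without the library labelled WT 2, the log2 change lay farther from 0 in all 30 windows and 6 genes called from PRE2 and in all 5 windows and 3 genes called from the gypsy2 viewpoint (leaving aside the gene CG31810, at 0 in gypsy2), and all of these were called again except the window at 16444001 and *Idgf2* at the gypsy2 viewpoint. For the main bands, windows and genes the log2 value without WT 2 is printed. WT 2 was singled out in these same data as the WT library nearest to gypsy2. Larger changes without it were therefore to be expected from that choice and lend the calls no further weight.

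A few bins were chosen without the library labelled WT 2, and its level in them was then read. Among 990 bins within 500 kb, 8 bins (PRE2) and 7 bins (gypsy2 viewpoint) held at least 100 CPM in WT 1 and WT 3 and less than 2% of that in gypsy2. In these bins the library labelled WT 2 held a median of 52.2% (range 37.3 to 66.3%) of the mean of WT 1 and WT 3 from PRE2, and 49.1% (41.6 to 126%) from the gypsy2 viewpoint. A library that takes no part in such a choice is expected to lie below those that do. No matching choice that leaves out WT 1 or WT 3 was made, so these percentages do not single out WT 2. The bin at 2L:16426001, in the window next to the PRE1 anchor, held 3167, 1415 and 2416 CPM in WT 1, 2 and 3 from PRE2 and none in the 3 gypsy2 libraries. The bin at 2L:16458001, 7 kb from the gypsy2 viewpoint, held 4013, 2880 and 4947 CPM in WT and 0, 0 and 0.354 in gypsy2 when read from that viewpoint. These bins were not alike in pupae. The bin at 16426001 was almost empty in WT 1 and WT 3 of pupae (0.494 and 0.318 CPM from PRE2, with 592 in WT 2), whereas the bin at 16458001 held 4225, 3709 and 4078 CPM in pupal WT from the gypsy2 viewpoint. Only 1 bin, at 2L:16557001 and from the gypsy2 viewpoint, was held by gypsy2 and absent from WT 1 and WT 3, and there the library labelled WT 2 reached 58.0% of the gypsy2 mean.

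The reference genome contains copies of gypsy, so that a fragment of the inserted element can be counted there. Of 22 annotated copies, only gypsy{}615 on 2R had more CPM in every gypsy2 library than in every WT library, from both viewpoints, and this copy was picked out after its values were seen. Its bin, 2R:5055001-5056000, held 30.8, 842 and 0 CPM in WT 1, 2 and 3 and 4171, 4364 and 2452 in gypsy2 1, 2 and 3 from the gypsy2 viewpoint. From PRE2 it held 0, 94.1 and 0 in WT and 162, 603 and 319 in gypsy2. Hence the library labelled WT 2 carried 23.0% and 26.1% of the gypsy2 level at this element. In pupae the WT libraries held at most 1 count in the bin from either viewpoint, while the gypsy2 libraries held 7104 to 13593 counts from the gypsy2 viewpoint. The other copies reached at most 113 CPM (PRE2) and 28.6 CPM (gypsy2 viewpoint). Whether the library labelled WT 2 contains gypsy2 material was not tested.

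**Figure D1:**
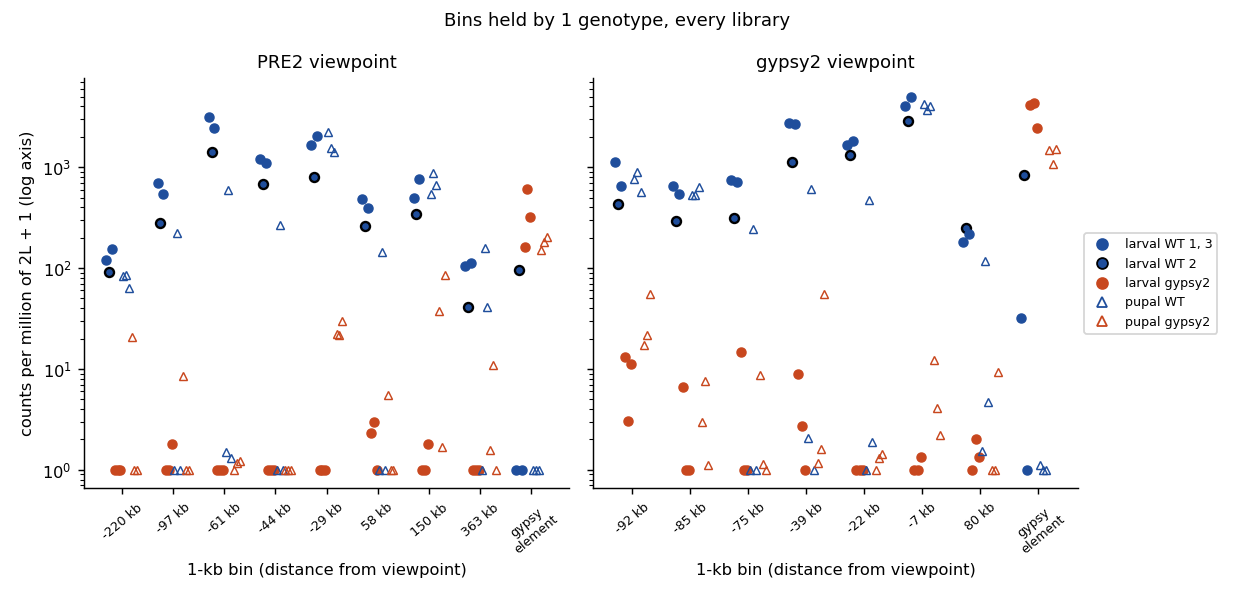
CPM plus 1 (log axis) in every larval (filled) and pupal (open) library, for the bins that WT held and gypsy2 lacked and for the bin of the gypsy element on 2R. Larval WT 2, circled in black, lies below WT 1 and WT 3 in most WT bins, which were chosen without it. At the element it lies between the other WT libraries and gypsy2, with 842 CPM from the gypsy2 viewpoint against 2452 to 4364 in gypsy2.

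The first comparison concerns how the contacts of PRE2 are spread by distance and side. In gypsy2 leg discs a smaller share of the contacts of PRE2 lay on the PRE1 side, between 20 and 200 kb. A larger share lay on the opposite side, in the nearest surroundings and at 500 to 2000 kb on the PRE1 side. The difference was steepest at 50 to 100 kb on the PRE1 side, the band that contains the PRE1 anchor. That band held 15.4, 12.8 and 16.5% of the 2L counts in WT 1, 2 and 3 and 9.0, 8.18 and 8.30% in gypsy2. Its share was thus 14.9% ± 1.94 (SD, n = 3) in WT and 8.50% ± 0.445 in gypsy2, a log2 ratio of −0.81, and −0.91 without the library labelled WT 2. All gypsy2 libraries lay below all WT libraries (exact permutation p = 0.1, the smallest this design allows).

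On the same side, the band of 20 to 50 kb, beyond *dac*, held 8.80, 7.46 and 9.96% in WT and 6.79, 5.81 and 5.97% in gypsy2 (log2 ratio −0.50, −0.60 without WT 2). At 100 to 200 kb WT held 7.14, 6.15 and 7.17% and gypsy2 5.47, 5.43 and 5.18% (log2 ratio −0.35, −0.42 without WT 2). The order was opposite at 5 to 20 kb, over *dac* itself, where gypsy2 held 11.4, 10.1 and 9.38% and WT 7.92, 8.77 and 8.63% (log2 ratio 0.29, 0.32 without WT 2). In each of these bands the groups did not overlap, and the exact permutation p was 0.1.

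On the opposite side gypsy2 was above WT in every band. The log2 ratio was 0.34 at 5 to 20 kb, 0.17 at 20 to 50 kb, 0.22 at 50 to 100 kb, 0.36 at 100 to 200 kb and 0.21 at 200 to 500 kb (0.39, 0.12, 0.25, 0.42 and 0.25 without WT 2). The band of 100 to 200 kb, largely within *mtgo* (miles to go), held 3.32, 3.83 and 3.45% in WT and 4.64, 4.56 and 4.40% in gypsy2. The far increase was not limited to this side. On the PRE1 side the band of 500 to 2000 kb held 5.87, 6.55 and 5.58% in WT and 6.77, 7.31 and 7.09% in gypsy2. Its log2 ratio was 0.23 (0.30 without WT 2), without overlap (exact permutation p = 0.1). As the shares of a library sum to 100%, a lower share in one band is accompanied by higher shares elsewhere, and on this scale the higher shares cannot be told apart from the lower ones.

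The ratio between the sides is free of that constraint. Within 200 kb, PRE2 had 2.74, 2.30 and 2.81 times as many counts on the PRE1 side as on the opposite side in WT, and 1.78, 1.60 and 1.65 times as many in gypsy2. The mean ratio was 2.62 ± 0.278 (SD, n = 3) in WT and 1.68 ± 0.0958 in gypsy2, a log2 difference of −0.64 (−0.73 without WT 2; exact permutation p = 0.1). Of 16 bands and regions read from PRE2, 9 were higher and 4 lower in gypsy2 without overlap, and 3 overlapped. The overlapping ones were 200 to 500 kb and over 2000 kb on the PRE1 side and the region around the gypsy2 viewpoint, whose share was 3.60, 3.14 and 3.93% in WT and 3.29, 3.26 and 2.48% in gypsy2 (exact permutation p = 0.3).

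The gypsy2 viewpoint showed the reverse. From this position a larger share of the contacts in gypsy2 leg discs lay on the PRE1 side and a smaller share on the side of *dac* and PRE2. At 5 to 20 kb toward PRE1, where the *Idgf* genes lie, the share was 10.3, 12.9 and 12.5% in WT and 18.4, 14.6 and 13.7% in gypsy2 (11.9% ± 1.42 against 15.6% ± 2.49, SD, n = 3; log2 ratio 0.39, 0.45 without WT 2). At 5 to 20 kb in the direction of PRE2, over *dac*, it was 10.7, 9.80 and 12.1% in WT and 8.55, 8.08 and 8.17% in gypsy2 (log2 ratio −0.39, −0.46 without WT 2). Neither band overlapped between groups (exact permutation p = 0.1).

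The same order held at 20 to 50 kb, with a log2 ratio of 0.16 toward PRE1 and −0.17 away from it. The PRE2 anchor itself, in the latter band, held 3.02, 2.77 and 3.02% in WT and 2.53, 2.52 and 2.60% in gypsy2 (log2 ratio −0.20, −0.24 without WT 2). Within 200 kb the ratio of the PRE1 side to the opposite side was 2.11, 2.43 and 2.16 in WT and 3.35, 3.08 and 2.87 in gypsy2, with means of 2.23 ± 0.17 and 3.10 ± 0.239 (SD, n = 3; log2 difference 0.47, 0.54 without WT 2; exact permutation p = 0.1). Here WT 2 was the WT library with the highest ratio, nearest to gypsy2. Of 15 bands and regions, 3 were higher and 4 lower in gypsy2 without overlap, and 8 overlapped, compared with 3 of 16 from PRE2.

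**Figure D2:**
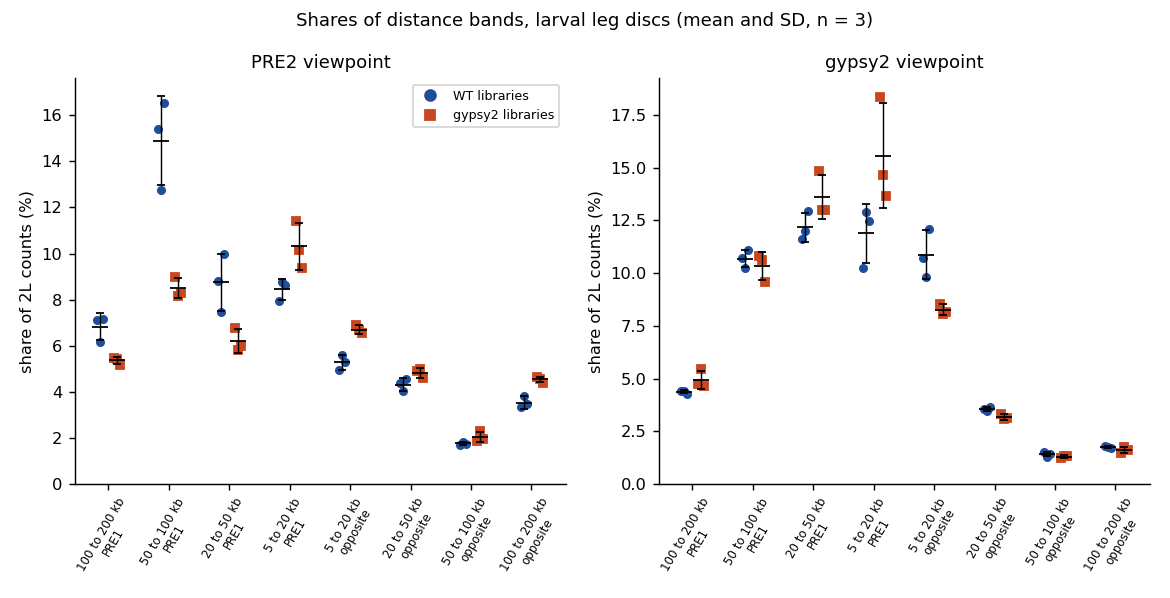
Share of the 2L counts (%) in bands of distance on either side of the PRE2 viewpoint (left panel) and of the gypsy2 viewpoint (right panel), with each library as a point and the mean and SD of 3 libraries as a bar. From PRE2 the band of 50 to 100 kb on the PRE1 side separates the groups most (12.8 to 16.5% in WT, 8.18 to 9.0% in gypsy2), and from the gypsy2 viewpoint the bands of 5 to 20 kb differ in opposite directions (log2 ratios 0.39 and −0.39).

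The second comparison asked which windows of 6 kb differed. Within 500 kb of PRE2, 165 windows were tested with edgeR's quasi-likelihood test (adjusted p under 0.05 after Benjamini-Hochberg correction over these windows), and 30 were called (18.2%), 10 higher and 20 lower in gypsy2. All 30 lay within 200 kb, where 66 windows were tested, and 0 of 99 farther windows were called. The lower windows were on the PRE1 side (18, against 2 on the opposite side) and the higher ones on the opposite side (9, against 1). In 25 of the 30 the 3 libraries of one genotype did not overlap the other 3, which was the case in 53 of the 165 windows (32.1%). In 29 of the 30 the WT library nearest to gypsy2 was WT 2, and without it all 30 were called. How often WT 2 was the nearest among all 165 windows was not counted, from either viewpoint. With TMM factors, which assume that most windows do not change, 25 of the 30 were called again, 5 higher and 20 lower, and the 5 lost were higher windows.

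**Figure D3:**
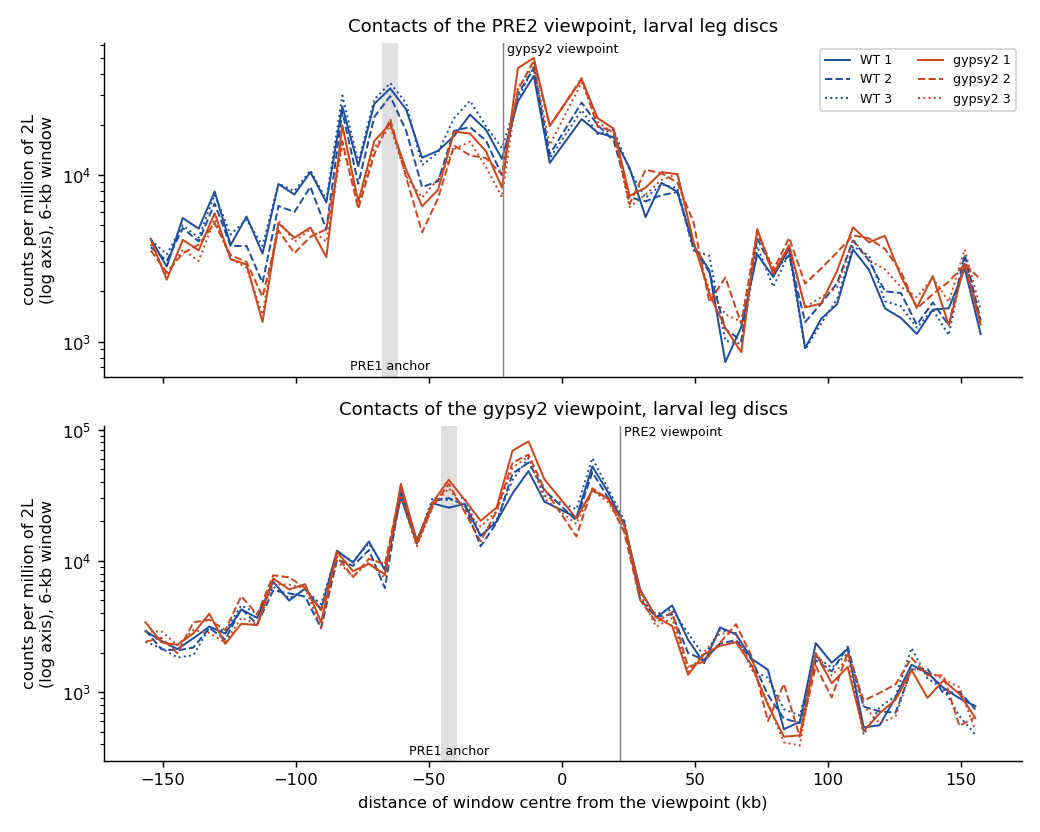
CPM in windows of 6 kb (log axis) against the distance from the PRE2 viewpoint (upper panel) and from the gypsy2 viewpoint (lower panel), one line per library. From PRE2 the gypsy2 lines run below the WT lines around the PRE1 anchor, marked in grey, where WT held 29655 to 35553 CPM and gypsy2 19637 to 21602.

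The lower windows formed an unbroken stretch of 13, from 16366001 to 16444000, which covers *jhamt* at one end, the gene-poor region next to it, and most of CG5888 with the PRE1 anchor. The largest decrease was not at the PRE1 anchor but in the next window, 2L:16426001-16432000, which is also within CG5888. It held 24659, 18387 and 26917 CPM in WT 1, 2 and 3 and 10738, 9655 and 9781 in gypsy2 (log2 change −1.21, SE 0.14, edgeR adjusted p = 2.07e-08). All gypsy2 libraries were below all WT libraries, at about the same level. This window contains the bin at 16426001 that gypsy2 lacked, and without such bins its log2 change was −1.07. Without WT 2 it was −1.35.

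The window of the PRE1 anchor held 33006, 29655 and 35553 CPM in WT and 20254, 21602 and 19637 in gypsy2 (log2 change −0.68, −0.74 without WT 2, SE 0.13, edgeR adjusted p = 0.000146). Its neighbour on the far side, at 16414001, changed by −0.82 (SE 0.14, adjusted p = 1.15e-05), with 26617, 22211 and 28279 CPM in WT and 15939, 13261 and 14518 in gypsy2. The decrease thus extended to both sides of the anchor. Farther out, the window at 16390001, in the gene-poor region between *jhamt* and CG5888, held 10387, 8480 and 10637 CPM in WT and 4829, 4249 and 4720 in gypsy2 (log2 change −1.09, SE 0.15, adjusted p = 1.5e-07). Its first bin held 690, 277 and 544 CPM in WT and 0, 0 and 0.802 in gypsy2. At 16372001 the log2 change was −1.05 (SE 0.18), from 3372, 2253 and 3750 to 1310, 1858 and 1452 CPM. *jhamt*, which encodes juvenile hormone acid methyltransferase, an enzyme that makes juvenile hormone, lies in the window at 16366001, where the level was 5624, 3744 and 5406 in WT and 2898, 2997 and 2770 in gypsy2 (log2 change −0.77, −0.94 without WT 2, SE 0.15, adjusted p = 0.000146). The gene body of *jhamt* itself was not called (log2 change −0.50, adjusted p = 0.711 over all genes). In that window, as at 16372001, WT 2 lay closer to gypsy2 than the other WT libraries did.

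Of the 20 lower windows, 12 were also called in every other fit of these windows (TMM factors, DESeq2, a cap on high bins, a replicate block, other dispersion options, without the bins that 1 genotype lacked, and with each library left out), and 11 of these belong to the stretch around PRE1. Nearer to PRE2, the window at 16450001, which covers *Idgf3*, changed by a log2 of −0.59 (SE 0.14, edgeR adjusted p = 0.00245; lost without WT 3, adjusted p = 0.056), and that at 16456001 by −0.53 (SE 0.14, adjusted p = 0.00317). The latter contains the bin at 16458001, with 1671, 789 and 2042 CPM in WT from PRE2 and 0 in each gypsy2 library. Without the bins that 1 genotype lacked, 29 of the 30 called windows were called again. On the opposite side the lower windows were 2L:16510001 and 2L:16540001. The first held 11007, 7326 and 10676 CPM in WT and 7480, 6662 and 6416 in gypsy2, so that the groups overlapped at WT 2 (log2 change −0.49, SE 0.15, adjusted p = 0.0146), and its call was lost without WT 1, WT 3 or gypsy2 3 (adjusted p from 0.072 to 0.17). It overlaps an annotated transposon, HMS-Beagle{}390 (16512018-16519074), as does the higher window beside it. The second held 2670, 2611 and 3264 CPM in WT and 1930, 1723 and 2044 in gypsy2 (log2 change −0.58, SE 0.15, adjusted p = 0.00418). It contains the bin at 16545001 that gypsy2 lacked, and it was not called without such bins (adjusted p = 0.086) or without WT 3 (adjusted p = 0.075).

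Of the 10 higher windows 7 lay in *mtgo*, and 1 each in *dac*, in *Tpr2* and in CG5953, the last of them the window at 16516001 that overlaps the transposon (log2 change 0.42, SE 0.15, edgeR adjusted p = 0.0382). The window at 16492001, over the 5′ part of *Tpr2*, which encodes a co-chaperone with tetratricopeptide repeats, held 21614, 27142 and 24481 CPM in WT and 37397, 37987 and 35849 in gypsy2 (log2 change 0.60, SE 0.13, edgeR adjusted p = 0.000506). It was lost where single bins were capped (adjusted p = 0.12). Within *dac*, the window at 16480001 held 11795, 13307 and 12540 in WT and 19687, 19680 and 15132 in gypsy2 (log2 change 0.53, SE 0.14, adjusted p = 0.00317), and it was lost without WT 1 (adjusted p = 0.063). Only the bins outside the region left out around PRE2 were counted in these windows. This was the only higher window on the PRE1 side. In *mtgo*, with its centre 121.5 kb from PRE2, the window at 16606001 held 1581, 2003 and 1746 in WT and 4306, 3591 and 2706 in gypsy2 (log2 change 1.0, 1.1 without WT 2, SE 0.16, adjusted p = 1.15e-05), the largest increase among the called windows. It and the window at 16576001 (log2 change 0.78, SE 0.20, adjusted p = 0.00278) were the higher windows called in every fit.

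Read at the gypsy2 viewpoint, 5 of 165 windows within 500 kb were called (3.03%), 2 higher and 3 lower, again all within 200 kb. The higher windows lay on the PRE1 side and the lower ones on the opposite side. The libraries of one genotype did not overlap those of the other in any of these 5, and in 32 of the 165 windows in all (19.4%). WT 2 was the WT library nearest to gypsy2 in all 5, and 4 were called without it. With TMM factors 7 windows were called, 5 higher and 2 lower, among them 4 of these 5. The balance of directions therefore depends on the scaling at this viewpoint.

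The window inside *dac* at 16474001, between the gypsy2 viewpoint and PRE2, held 52573, 47506 and 60918 CPM in WT and 34631, 35837 and 34604 in gypsy2 (log2 change −0.62, −0.70 without WT 2, SE 0.11, edgeR adjusted p = 0.000322). It was called in every fit of these windows. The PRE1 anchor moved the other way, from 25492, 30170 and 28982 CPM in WT to 41526, 38630 and 35867 in gypsy2 (log2 change 0.45, 0.51 without WT 2, SE 0.10, adjusted p = 0.00643). This call was lost without WT 1, without WT 3 or without gypsy2 2 (adjusted p from 0.053 to 0.24), and with capped bins (0.15). The window at 16444001, with *Idgf1* and part of *Idgf2*, held 32740, 46356 and 41302 CPM in WT and 69324, 56136 and 51445 in gypsy2 (log2 change 0.55, SE 0.12, adjusted p = 0.0139), and was lost without any one of the WT libraries (adjusted p from 0.11 to 0.16) and with capped bins (0.062). Among WT libraries WT 2 was the highest in both of these windows.

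Beyond PRE2 the windows at 16510001 and 16540001 were lower, as they were from PRE2. The former held 2506, 1990 and 2819 CPM in WT and 1356, 1559 and 1423 in gypsy2 (log2 change −0.75, SE 0.16, edgeR adjusted p = 0.00403), and was lost without WT 3 (adjusted p = 0.086). The latter held 1483, 957 and 1288 in WT and 799, 601 and 828 in gypsy2 (log2 change −0.73, SE 0.21, adjusted p = 0.0366). Its call was lost without WT 1, WT 3 or gypsy2 2 (adjusted p from 0.064 to 0.24), with TMM factors (0.076), with capped bins (0.062) and without the bins held by one genotype (0.3).

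**Figure D4:**
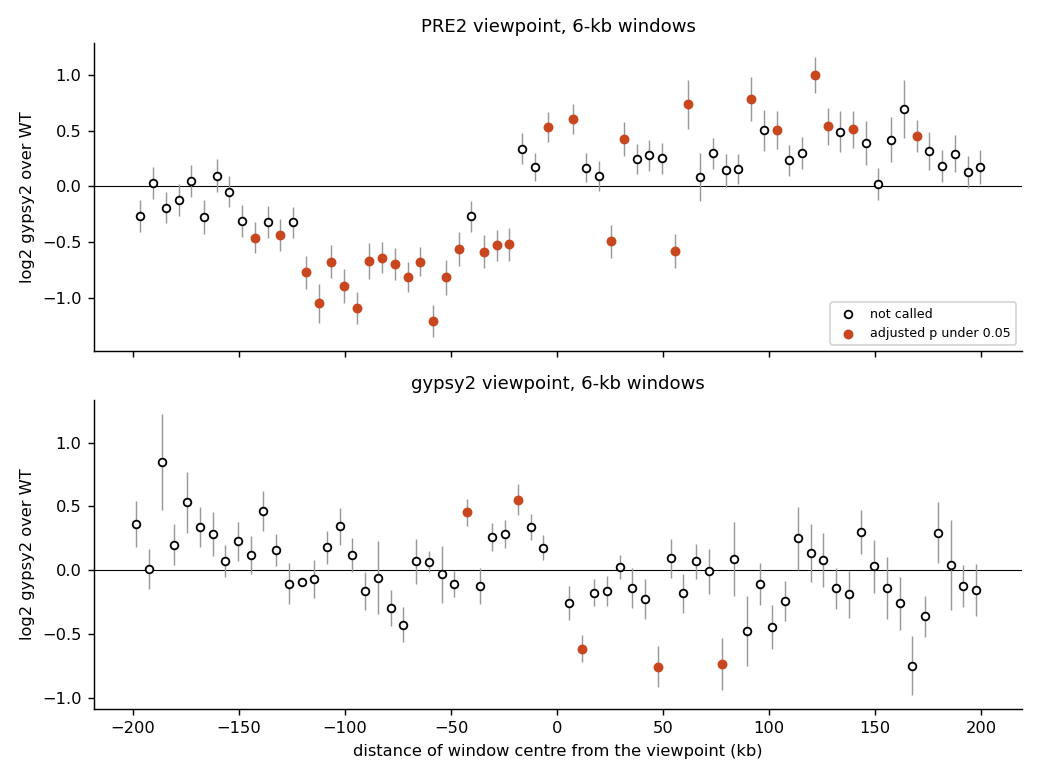
Log2 change of gypsy2 over WT (bars, SE) in windows of 6 kb against the distance from the PRE2 viewpoint (upper panel) and the gypsy2 viewpoint (lower panel), with windows of edgeR adjusted p under 0.05 filled. From PRE2, 18 of the 20 lower windows lie on the PRE1 side (negative distance) and 9 of the 10 higher ones on the opposite side, and from the gypsy2 viewpoint the 2 higher and 3 lower windows lie the other way round.

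Counts were also summed over gene bodies, without the bins left out around the viewpoint. From PRE2, 7 of 10190 genes changed (0.0687%), 3 higher and 4 lower, all of them on 2L. Bins at the ends of neighbouring genes are counted for each of them. The same bins enter the bands and windows, so the genes are not separate evidence. CG5888, the gene that contains the PRE1 anchor, held 164467, 137748 and 178168 CPM in WT and 104665, 92664 and 96042 in gypsy2 (log2 change −0.71, −0.81 without WT 2, SE 0.07, edgeR adjusted p = 4.83e-11). It was called in every fit. The other calls each depended on single libraries, as in every case they were lost when certain libraries other than WT 2 were left out. With TMM factors, under which the median log2 change of all genes fell by 0.20, and with scaling to 2L counts over 200 kb away, under which it fell by 0.15, 5 genes were called, 1 higher and 4 lower.

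*Idgf1*, *Idgf2* and *Idgf3* encode secreted growth factors of imaginal discs that are related to chitinases. *Idgf3* was lower from PRE2 (log2 change −0.59, −0.71 without WT 2, SE 0.11, edgeR adjusted p = 0.00281), and this call was lost without WT 1, WT 3, gypsy2 2 or gypsy2 3 (adjusted p from 0.082 to 0.71). *Idgf2* and *Idgf1* were not called (log2 change −0.33 and −0.19, adjusted p = 0.711 and 0.789). Read at the gypsy2 viewpoint, the order was reversed. *Idgf1* rose from 13841, 19963 and 15990 CPM in WT to 28426, 24136 and 22581 in gypsy2 (log2 change 0.59, 0.75 without WT 2, SE 0.11, adjusted p = 0.000141), and *Idgf2* rose from 21299, 30181 and 29444 to 51158, 33366 and 35321 (log2 change 0.57, 0.65 without WT 2, SE 0.09, adjusted p = 3.13e-05). The call of *Idgf1* was lost without WT 1, WT 3 or gypsy2 3 (adjusted p from 0.055 to 0.78) and with capped bins (0.74) or DESeq2 (0.18), and that of *Idgf2* without any library but gypsy2 2 (0.076 to 0.78), with TMM factors (0.78) and with DESeq2 (adjusted p of 1). *Idgf3* missed the threshold there (log2 change 0.34, adjusted p = 0.0783).

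The body of *dac* differed in opposite directions when read from its ends. From PRE2 the bins left out include its 5′ end, and from the gypsy2 viewpoint its 3′ end. The counts below therefore cover different parts of *dac*. From PRE2, upstream of its start, it held 80307, 88672 and 87644 CPM in WT and 115202, 103399 and 95098 in gypsy2 (log2 change 0.29, 0.32 without WT 2, SE 0.07, edgeR adjusted p = 0.131), so the groups did not overlap but the test was not passed. Past its 3′ end, at the gypsy2 viewpoint, it held 107157, 97959 and 120978 in WT and 85490, 80832 and 81684 in gypsy2 (log2 change −0.39, −0.46 without WT 2, SE 0.07, adjusted p = 0.000149). This second call was lost without WT 1, WT 3 or gypsy2 3 (adjusted p from 0.058 to 0.87), with capped bins (0.74) and with DESeq2 (0.97).

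On the other side of PRE2, *Tpr2* held 49498, 55870 and 52991 CPM in WT and 68938, 66645 and 65432 in gypsy2 from PRE2 (log2 change 0.34, 0.39 without WT 2, SE 0.07, edgeR adjusted p = 0.0306). *mtgo* held 38452, 43096 and 38288 in WT and 50715, 55998 and 48986 in gypsy2 (log2 change 0.38, 0.44 without WT 2, SE 0.08, adjusted p = 0.0293). Both genes were higher in all gypsy2 libraries, and both calls were lost with TMM factors (adjusted p = 0.83 and 0.79) and when any library other than WT 2 was left out (adjusted p from 0.16 to 0.94 for *Tpr2*, from 0.082 to 0.89 for *mtgo*). CG4631, a gene inside *mtgo* that falls in the window of the largest increase, rose from 1008, 1374 and 1110 to 3133, 2683 and 1923 CPM (log2 change 1.15, 1.29 without WT 2, SE 0.19, adjusted p = 0.000593). Its call was lost without WT 1, WT 3, gypsy2 1 or gypsy2 2 (adjusted p from 0.05 to 0.087). At the gypsy2 viewpoint *Tpr2* was not called (log2 change −0.14, adjusted p = 0.812), nor was *Nepl8*, which encodes a neprilysin-like protein and lies within the region left out around PRE2 (log2 change −0.29, adjusted p = 0.744).

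From the gypsy2 viewpoint 4 of 12844 genes changed (0.0311%), 2 higher (*Idgf1* and *Idgf2*) and 2 lower (*dac* and CG31810). With TMM factors or scaling to 2L counts over 200 kb away 3 were called, 1 higher and 2 lower. CG5888 was not among them, with 190001, 207183 and 211407 CPM in WT and 258727, 224984 and 218072 in gypsy2 (log2 change 0.21, adjusted p = 0.559). CG31810 (2L:16849018-16852368) was empty in gypsy2 from both viewpoints. From PRE2 it held 260, 119 and 318 counts in WT 1, 2 and 3 and 0 in each gypsy2 library, at least 68.8-fold lower against a floor of 3 counts per library (edgeR adjusted p = 0.00281). Counted at the gypsy2 viewpoint, WT held 775, 309 and 340 counts, and gypsy2, again at 0, was at least 174-fold lower (adjusted p = 9.75e-05). Both calls depended on the bins that one genotype lacked (adjusted p = 0.26 and 0.16 without them), and the call from PRE2 was lost without any library but WT 2 (adjusted p from 0.05 to 0.17), that from the gypsy2 viewpoint without WT 1 or gypsy2 3 (0.055 to 0.64). The remaining gene called from PRE2, CG44405, fell from 1955, 1665 and 2267 to 1132, 962 and 757 CPM (log2 change −1.04, −1.15 without WT 2, SE 0.20, adjusted p = 0.0058), a call that was lost without WT 1, WT 3, gypsy2 2 or gypsy2 3 (adjusted p from 0.14 to 0.47).

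**Figure D5:**
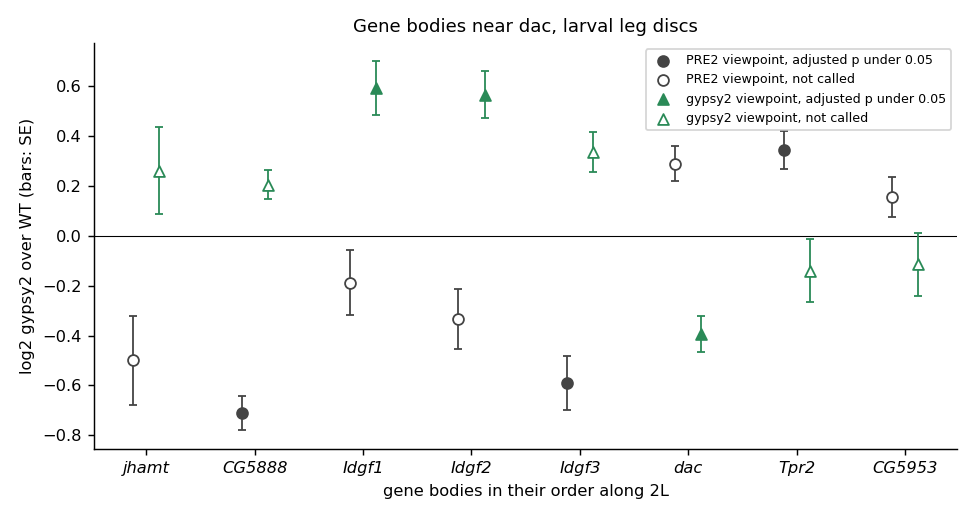
Log2 change of gypsy2 over WT (bars, SE; 3 libraries per group) in the bodies of genes near *dac*, in their order along 2L, from the PRE2 viewpoint (circles) and the gypsy2 viewpoint (triangles), filled where the edgeR adjusted p is under 0.05. CG5888 is lower from PRE2 (−0.71) and not called from the gypsy2 viewpoint (0.21), while *dac* is 0.29 from PRE2 (not called) and −0.39 from the gypsy2 viewpoint. Bins left out around a viewpoint are not counted, so the parts of *dac* covered differ.

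Far contacts were examined with the same test over the whole genome. From PRE2, 18 of 15442 windows of 6 kb were called (0.117%), 4 higher and 14 lower, 17 of them on 2L. With TMM factors the count was 17, of which 1 was higher and 16 were lower, and with scaling to 2L counts over 200 kb away it was 18, of which 2 were higher. The libraries of the genotypes did not overlap in 1529 windows (9.9%). The single call in trans was the window at 2R:5052001, which contains gypsy{}615 (log2 change 3.36, edgeR adjusted p = 5.75e-05), and it was lost without gypsy2 2 (adjusted p = 0.21) and with DESeq2 (0.92). From the gypsy2 viewpoint 4 of 18492 windows were called (0.0216%), 3 higher and 1 lower, all of them on 2L and between the PRE1 anchor and *dac*, and the libraries did not overlap in 1729 windows (9.35%). The window of gypsy{}615 was not called here, although its bin held 30.8, 842 and 0 CPM in WT and 4171, 4364 and 2452 in gypsy2. The lack of calls in trans therefore does not show that counts there were alike. Of 96 stretches of 50 bases in that bin, 62 were found again elsewhere in the genome. Whether the counts at this copy reflect contacts with 2R or fragments of the inserted element was not tested. The 3 higher windows were at 16420001, 16444001 and 16450001, the last of which covers *Idgf3* (log2 change 0.34, adjusted p = 0.0155), and the lower one was at 16474001. Only the latter was called with TMM factors, under which the median of all windows fell by 0.11, and the higher windows were lost when single libraries were left out (16420001 without WT 1 or gypsy2 1, 16444001 without WT 3 or gypsy2 2, 16450001 without WT 1 or any gypsy2 library; adjusted p from 0.071 to 0.96). With capped bins 16444001 was the only one of the 4 called, and 16474001 was lost too (adjusted p = 0.094). With DESeq2 none of the 4 was called (adjusted p from 0.42 to 1), so none was called in every fit.

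In windows of 100 kb, 4 of 1355 were called from PRE2 (0.295%). The window at 2L:16320001, which extends up to the PRE1 anchor, fell from 140752, 117310 and 147416 CPM in WT to 92024, 85245 and 84055 in gypsy2 (log2 change −0.63, SE 0.07, edgeR adjusted p = 6.43e-10). The other 3 were higher, namely the window at 16520001, which includes *mtgo* (log2 change 0.30, adjusted p = 0.0452), and windows at 18920001 (0.49, adjusted p = 0.0452) and 15020001 (0.43, adjusted p = 0.0472) on either side of the locus. The calls of these 3 were lost without WT 1, WT 3, gypsy2 1 or gypsy2 2, and that of 15020001 also without gypsy2 3 (adjusted p from 0.075 to 0.86). None of the 4 was called with DESeq2 (adjusted p = 0.13 for 16320001), which called 1 other window, or with scaling to the trans total, which called none. Of the windows read at the gypsy2 viewpoint, 1 of 1364 was called (0.0733%), at 2L:11320001, with 2835, 2701 and 3591 CPM in WT and 1632, 2051 and 1816 in gypsy2 (log2 change −0.73, SE 0.18, adjusted p = 0.0422). It was lost without any library but gypsy2 3 (adjusted p from 0.055 to 1), and DESeq2 called none.

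Contacts with other chromosomes differed by less than the spread between the libraries. From PRE2 they amounted to 23.4, 25 and 19.9% of the 2L counts in WT and 19.6, 22.2 and 31.1% in gypsy2 (22.8% ± 2.59 against 24.3% ± 6.06, SD, n = 3; exact permutation p = 0.9), and from the gypsy2 viewpoint to 22.2, 23.5 and 18.8% in WT and 15.7, 19.4 and 29.3% in gypsy2 (exact permutation p = 1). The highest and the lowest of all these libraries were both gypsy2 libraries. Trans contacts were thinly covered, with counts in 6.95 to 24.9% of the bins on other chromosomes from PRE2 and in 6.33 to 25.6% at the gypsy2 viewpoint.

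Genes known as targets or regulators of the Polycomb system were examined among these far contacts. Of 26 Polycomb-regulated developmental genes on 2L, 3 of the bithorax complex, 7 or 8 of 8 of the Antennapedia complex, 20 that pattern the leg, 15 that encode Polycomb group proteins and 5 or 8 of 8 that encode insulator proteins (from PRE2 or the gypsy2 viewpoint, where they differ), none passed the edgeR test. The smallest adjusted p was 0.711 (PRE2) and 0.744 (gypsy2 viewpoint). At an unadjusted p under 0.05 there were 4, 0, 0, 0, 1 and 1 genes in the lists, in this order, from PRE2 and 4, 0, 0, 2, 0 and 0 at the other viewpoint. Of all genes tested, 646 (6.34%) from PRE2 and 680 (5.29%) at the other viewpoint had such a p. The median log2 change was −0.01 for the Polycomb-regulated genes and 0.05 for the leg patterning genes from PRE2, and −0.36 and −0.38 at the other viewpoint, beside medians of all genes of 0.11 and −0.06. For the other lists the median was 0.11 and −0.31 (bithorax complex), 0.05 and 0.00 (Antennapedia complex), −0.21 and 0.53 (Polycomb group) and 1.02 and −0.85 (insulator proteins). With few counts per gene at these distances, smaller changes were not detectable at this depth.

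The last comparison set the larval changes beside those of pupal leg discs, which come from other libraries. A smaller share of the contacts of PRE2 lay on the PRE1 side in gypsy2 of both stages, without overlap of the groups. In pupae the log2 ratio of the band of 50 to 100 kb on that side was −0.46 (larvae −0.81), that of the PRE1 anchor −0.62 (larvae −0.68), and that of the PRE1 side over the opposite side within 200 kb −0.40 (larvae −0.64). Not every band matched, as the share of 20 to 50 kb on the opposite side, higher in larval gypsy2 (0.17), was lower in pupal gypsy2 without overlap (−0.08), and at 200 to 500 kb on that side (0.21 in larvae) the pupal groups overlapped (0.01). Of the 30 windows called in larvae from PRE2, 25 had the same direction in pupae and 18 were called there too, 14 lower and 4 higher, while 32 of 165 windows were called in pupae in all (19.4%). A further 2 were called in pupae in the opposite direction, 16540001 (log2 change −0.58 in larvae and 1.09 in pupae) and 16588001 (0.51 and −0.52, pupal adjusted p = 0.04996). The window of the largest larval increase, 16606001, was not called in pupae (log2 change 0.09). At the gypsy2 viewpoint, 4 of the 5 windows had the same direction in pupae and 3 were called, of 18 of 166 in all (10.8%), and the ratio of the sides differed by a log2 of 0.36 in pupae and 0.47 in larvae.

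Whether the effect of gypsy2 differed between stages was tested by an interaction term. From PRE2, 2 of 19823 windows passed over the whole genome (0.0101%), those at 16426001 and 16540001, and 7 of 165 when the windows within 500 kb were fitted alone (4.24%). In 5 of these 7 the log2 change of larvae was below that of pupae, namely at 16396001, 16426001, 16474001, 16540001 and 16570001 (differences −0.65, −0.74, −0.30, −1.67 and −1.05), and in 2 it was above (1.02 at 16588001 and 0.91 at 16606001). For the gypsy2 viewpoint, none of 20454 windows (0%) and none of the 165 within 500 kb (0%) passed in edgeR, while 986 windows of the genome had an unadjusted p under 0.05 and DESeq2 called 971. In the fits within 500 kb some windows gave no usable test statistic and no SE. Among them were 16390001 from PRE2 (difference −0.49) and 16450001 from the gypsy2 viewpoint (−0.07). These windows could not be called, and they entered the correction, so the counts within 500 kb are uncertain. The window at 16426001 contains the bin of the same start, which held 2416 to 3167 CPM in larval WT 1 and WT 3 and less than 1 in pupal WT 1 and WT 3.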

How the data were processed

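4C-seq was measured in 3 WT and 3 gypsy2 libraries of larval leg discs, with pupal leg discs as comparison, from 2 viewpoints. The authors deposited raw read counts per 1-kb bin, one column per library and not normalized. The submitters' processing notes name Bowtie and dm6. Neither labels nor file headers state the restriction enzymes, the filters or how PCR copies were handled, so copies of a fragment may raise single bins, and a bin without a usable restriction fragment holds nothing. The last bin of each of the 7 chromosomes ends 1 base under the dm6 length, and genes and transposons were taken from Ensembl 115. The 4C-seq libraries of embryos in the series were not used.

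The bin with the highest count marked the viewpoint. It and 5 kb on either side were left out, and each library was scaled to its remaining 2L total. Shares were compared with exact two-sided permutation tests. Counts summed in windows of 6 kb (one of them the PRE1 anchor), in 100-kb windows and in gene bodies, with a mean of at least 10 counts per library, were compared with the quasi-likelihood test of edgeR 4.0.16 (R 4.3.3; Benjamini-Hochberg adjusted p under 0.05), over the whole genome and for windows within 500 kb alone. The test was run with robust, non-legacy dispersion options. These were chosen after results under the package defaults had been seen. The fits were also run on simulated counts, drawn with the spread that edgeR estimated from these libraries. Such counts contain no PCR copies and no deviating library, so they cannot show how the fits handle these. Genes named were those within 100 kb of a viewpoint that have a name, CG5888, CG5953, called genes, and members of the lists. Alternatives were TMM factors, other scaling totals, DESeq2 1.42.0, other filters and window sizes, bins capped at the 99th percentile within 500 kb, and each library left out. Added after seeing the data were the dispersion options, the removal of bins held by 1 genotype, and the alternatives for windows within 500 kb. Replicates of the same number in their titles did not deviate together (correlations −0.02, −0.02 and −0.13 from PRE2, −0.02, 0.11 and 0.03 from the gypsy2 viewpoint), so the numbers were not taken as pairs. In the column names the larval WT libraries carry the numbers 4, 5 and 6, and the gypsy2 libraries 1, 2 and 3. WT 2 is thus number 5 there. Windows, regions and lists were chosen with earlier results of these data known. Python 3.11.15, numpy 2.4.6, pandas 2.3.3, scipy 1.17.1 and matplotlib 3.10.9 were used.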

Additional observations from a re-analysis of the deposited data

Results flagged for a closer look

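The effect of gypsy2 differed between larvae and pupae in a pair of windows read from PRE2, where the test of the difference itself passed in edgeR over the whole genome. In the window at 2L:16426001, next to the PRE1 anchor, the log2 change of gypsy2 over WT was −1.21 in larvae and −0.47 in pupae (each stage fitted alone within 500 kb), a difference of −0.74 (adjusted p = 0.0257). In the window at 2L:16540001 it was −0.58 in larvae and 1.09 in pupae, a difference of −1.67 (adjusted p = 2.9e-05). Both windows contain a bin that larval WT held and larval gypsy2 lacked, and that was near 0 in pupal WT 1 and WT 3 but not in pupal WT 2. Its part in the difference was not tested.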

How the results depend on the processing

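Exact tests of shares cannot pass the threshold at this size, so no share could change sides. Of 13 shares whose groups overlapped, 6 turned direction in 15 of 130 alternative values. Leave-one-out log2 values of the trans share ran from −0.13 to 0.23 from PRE2 and from −0.29 to 0.18 from the gypsy2 viewpoint. From PRE2 the 18 windows called genome-wide became 74 with DESeq2 (8 higher, 66 lower; 15 of the 18 among them), 30 within 500 kb alone, 35 in 3-kb and 11 in 12-kb windows, 8 with the replicate block, and 8 to 21 with 1 library left out. The 30 within 500 kb became 17 without WT 1, 18 without WT 3 and 17 to 35 over all libraries. The 7 genes became 27 with DESeq2 (5 shared), 1 with the replicate block and 1 to 7 with 1 library left out, and the log2 change of CG5953, PRE2 viewpoint (0.16, not called), turned to −0.053 with TMM factors and −0.00833 with scaling to 2L counts over 200 kb away. The 4 windows of 100 kb became 0 with the trans total, 1 with DESeq2, 1 with either other dispersion option and 1 to 12 with 1 library left out. From the gypsy2 viewpoint the 4 windows became 1 with TMM factors, 78 with DESeq2 (0 shared), 1 in 12-kb windows, 1 with capped bins, 7 with default dispersion options and 2 to 5 with 1 library left out. The 5 within 500 kb became 2 with capped bins, 12 with DESeq2 (5 shared), 1 without WT 3, 3 without WT 1, 8 without gypsy2 3, and 1 to 8 over all libraries. The 4 genes became 52 with DESeq2 (1 shared), 2 with capped bins, 8 and 7 with the other dispersion options and 0 to 4 with 1 library left out. The 100-kb window became 0 with the trans total, DESeq2 or capped bins and 0 to 10 with 1 library left out. DESeq2 called 385 and 971 windows for the difference between stages, against 2 and 0 in edgeR. TMM factors lowered the median of all PRE2 windows by 0.25 and scaling to counts over 200 kb away by 0.16, and TMM raised that of the windows within 500 kb of the gypsy2 viewpoint by 0.11. The causes were not tested. Of single windows and genes, calls of 97 of 415 (genome windows), 63 of 455 (within 500 kb) and 64 of 330 (genes) alternative values were weaker. With 3 libraries per group, WT 2 nearer to gypsy2 than WT 1 and WT 3 were, and few counts far from the locus, changes beyond 200 kb are poorly resolved.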
